A study of Mus musculus with 2 samples.

Results

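The CC chemokine genes Ccl2, Ccl7, Ccl8, Ccl11 and Ccl19 were followed in mouse lung fibroblastic stroma. They were chosen by name, with pseudogenes left out, were found in both deposited tables by Ensembl ID (ENSMUSG00000035385, ENSMUSG00000035373, ENSMUSG00000009185, ENSMUSG00000020676 and ENSMUSG00000071005 in that order), and make up 5 of the 21014 genes listed there. Single-cell transcriptomes came from C57Bl/6J mice fed for 16 weeks, with 1 library for a high fat diet (HFD) and 1 for normal chow (NC). Both libraries were made from lung with a 10x Genomics 3′ kit, and neither the age of the animals nor the number pooled into a library is given in the labels. Cells were kept from 500 genes upward and up to 10% mitochondrial counts, which left 6089 of 6971 HFD and 8140 of 9015 NC cells. The deposited annotation names 5 classes: myofibroblasts, pericytes, and fibroblasts called Asc1, Gas6 or Pi16. All classes but pericytes were joined as pooled fibroblasts, which hold 5493 HFD and 7890 NC cells.

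With 1 library per diet there was no replicate and no test. A level is the sum of a gene's recovered counts over a class, scaled to that class's total as CPM. Every interval is a 95% interval that covers counting error only, not the spread between cells or animals. Counts of 1 transcript in 1 cell came in clumps, so intervals rest on effective counts: HFD counts were divided by 4.85 and NC counts by 3.98, the median, over rarely seen genes, of the summed squared counts divided by the summed counts. The divisors were not fitted to each chemokine. Positive pooled fibroblasts held on average 25.7 Ccl2, 14.7 Ccl7, 6.74 Ccl8 and 12.4 Ccl11 counts in HFD. The NC means were 19.4, 14.2, 4.72 and 9.24, and all these lie above the divisors. Ccl19 means, 4.8 in HFD and 4.39 in NC, were near them. Level and ratio intervals are therefore too narrow for genes held by few cells, and a gap between them is not read as a test. Median depth was 10045 counts per kept cell in HFD and 7524 in NC. A total of 16 cell barcodes occurred among the kept cells of both libraries, and no cell was removed as a doublet. The class names were read against marker lists. Alveolar markers (Npnt, Inmt, Tcf21 and others, 7 genes) summed to 15132 CPM in HFD and 10916 CPM in NC Asc1 fibroblasts, and adventitial markers (Pi16, Dpp4, Cd34 and others, 7 genes) to 8205 and 8443 CPM in Pi16 fibroblasts. The class labelled pericytes held 28100 and 27592 CPM of 6 smooth muscle genes (Acta2, Myh11 and others) against 481 and 350 CPM of 7 pericyte genes, so its name should be read as a label.

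Chemokines are small secreted proteins that bind heparan sulfate on cell surfaces and matrix and guide leukocytes that carry the matching receptor. The CC family is named for a pair of adjacent cysteines near the start of the mature protein. In the lung, stromal cells around vessels and airways are a known source of these signals. Ccl2 (monocyte chemoattractant protein 1) draws monocytes from blood through the receptor Ccr2. Ccl7 is a close relative that also acts on Ccr2. Ccl8 is a related monocyte chemoattractant that in mice acts on Ccr8. Ccl11 (eotaxin 1) draws eosinophils through Ccr3. Ccl19 binds Ccr7 and guides naive T cells and mature dendritic cells within lymphoid tissue.

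The coding sequence around the cysteine pair shows what joins the genes and what sets Ccl19 apart. Each line gives 78 coding bases from the GENCODE vM21 transcripts, 5′ to 3′, with the codons of the first in-frame cysteine pair in capitals:
Ccl2: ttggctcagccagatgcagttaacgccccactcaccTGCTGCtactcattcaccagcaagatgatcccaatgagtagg
Ccl7: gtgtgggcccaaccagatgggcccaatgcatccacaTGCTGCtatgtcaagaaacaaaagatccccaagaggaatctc
Ccl8: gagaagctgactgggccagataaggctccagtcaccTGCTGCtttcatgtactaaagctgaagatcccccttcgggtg
Ccl11: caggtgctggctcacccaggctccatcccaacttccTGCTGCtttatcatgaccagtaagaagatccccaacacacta
Ccl19: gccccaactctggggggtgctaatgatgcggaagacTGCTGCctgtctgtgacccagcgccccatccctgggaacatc
The pair lay at codons 34 and 35 of Ccl2, 33 and 34 of Ccl7 and Ccl19, and 32 and 33 of Ccl8 and Ccl11. All 5 genes spelled it with the same 6 bases. Over aligned coding bases, Ccl2, Ccl7, Ccl8 and Ccl11 were 64.6 to 73.5% identical to one another, and Ccl19 was 55.6 to 63.1% identical to each of them. The annotation places Ccl2, Ccl7 and Ccl11 side by side on chromosome 11, with Ccl8 on the same chromosome between Ccl12 and Ccl1, and Ccl19 on chromosome 4 next to Ccl21a. Ccl12 and Ccl1 were not analysed here.

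A 3′ kit reads transcript ends, so the last 400 bases of each transcript were compared with all other annotated genes. Ccl2, Ccl7, Ccl8 and Ccl11 had no match of at least 90 bases at 95% identity or more. Ccl19 had 4. The predicted gene Gm2564 matched over 400 bases at 99.3% identity, Ccl19-ps3 over 195 bases at 100%, Ccl19-ps1 over 195 bases at 99.5% and Gm12407 over 195 bases at 99%. In pooled fibroblasts, Gm2564 had 796 counts in HFD and 1422 in NC, beside 4224 and 6091 for Ccl19. Of the 447 HFD and 737 NC cells with a Gm2564 count, 445 and 735 also had a Ccl19 count. How reads were divided among these copies is not given in the sources used here, so every Ccl19 value is uncertain and may include reads of its copies.

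Ccl2 had its highest summed level in Gas6 fibroblasts of HFD, and in NC in myofibroblasts and Gas6 fibroblasts. Its level was 305.6 CPM (289 to 323) in HFD and 317.5 CPM (304 to 331) in NC Gas6 fibroblasts. In Asc1 fibroblasts it was 183 CPM (172 to 194) in HFD and 247 CPM (235 to 259) in NC. In Pi16 fibroblasts the values were 78.2 CPM (65.7 to 92.5) and 179 CPM (162 to 197). The HFD value was lower in each of these 3 classes, by little in Gas6 fibroblasts, where the intervals overlap. Myofibroblasts held 125 CPM (100.5 to 153) in HFD and 366 CPM (327 to 409) in NC. In the class labelled pericytes the level was 55.7 CPM (47.2 to 65.3) in HFD and 268 CPM (238 to 300.1) in NC. These last values rest on few cells. Only 15 HFD and 13 NC pericytes had a Ccl2 count, and 1 HFD cell held 386 of the class's 736 counts.

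Ordered by Ccl2 level, the HFD classes ran from Gas6 through Asc1 fibroblasts, myofibroblasts and Pi16 fibroblasts to pericytes, and the counting intervals of neighbours did not overlap. In NC the order was myofibroblasts, Gas6 fibroblasts, pericytes, Asc1 and Pi16 fibroblasts. There the intervals of myofibroblasts and Gas6 fibroblasts overlapped, as did those of pericytes and Asc1 fibroblasts.

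Ccl7, the other Ccr2 ligand, was lower in HFD in every class. In Gas6 fibroblasts it was 66.2 CPM (58.5 to 74.7) in HFD and 148 CPM (139 to 157) in NC. Pi16 fibroblasts held 74.2 CPM (62 to 88.2) and 137 CPM (122 to 152). The intervals of HFD and NC did not overlap in either class. In Asc1 fibroblasts the level was 28.8 CPM (24.4 to 33.6) in HFD and 52 CPM (46.6 to 57.9) in NC. Myofibroblasts had 45.6 CPM (31.5 to 63.9) against 177 CPM (150 to 208). Pericytes had 26.7 CPM (20.9 to 33.6) against 38.3 CPM (27.7 to 51.7), where the intervals overlap and 8 HFD and 6 NC cells carried all counts. In HFD the order of Ccl7 was Pi16, Gas6, myofibroblasts, Asc1 and pericytes, and each class overlapped its neighbour. In NC it was myofibroblasts, Gas6, Pi16, Asc1 and pericytes, and neighbours overlapped except Pi16 and Asc1 fibroblasts.

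Ccl8 and Ccl11 had their highest level in Pi16 fibroblasts in both libraries. Ccl11 was at 313 CPM (287 to 340) in HFD and 428 CPM (402 to 455) in NC Pi16 fibroblasts. Gas6 fibroblasts had 27.1 CPM (22.3 to 32.75) in HFD and 50.2 CPM (45 to 55.8) in NC. Asc1 fibroblasts had 6.02 CPM (4.14 to 8.47) and 6.31 CPM (4.52 to 8.58). Pi16 fibroblasts were 13.1% of HFD and 15% of NC kept cells but held 77% of the Ccl11 counts in HFD and 71.2% in NC. Ccl11 in myofibroblasts was 21.7 CPM (12.4 to 35.3) in HFD and 13.1 CPM (6.54 to 23.4) in NC, and all 77 HFD counts came from 1 cell. In pericytes it was 2.12 CPM (0.758 to 4.68) and 15.4 CPM (8.99 to 24.7), from 6 cells in each library.

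Ccl8 was at 21.5 CPM (15.2 to 29.6) in HFD and 31.9 CPM (25.1 to 39.9) in NC Pi16 fibroblasts. It was at 1.65 CPM (0.641 to 3.47) and 1.84 CPM (0.967 to 3.17) in Gas6 fibroblasts. Asc1 fibroblasts had 0.568 CPM (0.121 to 1.64) and 0.627 CPM (0.171 to 1.6), from 15 and 16 counts. The Pi16 class held 79.5% of all Ccl8 counts in HFD and 82.1% in NC. No Ccl8 count was found in 510 HFD and 667 NC myofibroblasts, which, at 3 cells allowed by a count of 0, allows a share of cells with a count of up to 0.588% and 0.45%. None was found in 596 HFD and 250 NC pericytes, which allows up to 0.503% and 1.2%.

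Ccl19 was present in all 5 classes. It was at 127 CPM (111 to 145) in HFD and 142 CPM (128 to 158) in NC Pi16 fibroblasts. Myofibroblasts had 108 CPM (85.6 to 135) and 148 CPM (123 to 176). Gas6 fibroblasts had 73.6 CPM (65.4 to 82.5) in HFD and 98.7 CPM (91.3 to 106) in NC. Asc1 fibroblasts had 50.8 CPM (45 to 57.15) and 61.3 CPM (55.4 to 67.7), and pericytes 51.8 CPM (43.6 to 61.1) and 63.9 CPM (49.9 to 80.7). HFD was the lower library in each class, with intervals that stood apart only in Gas6 fibroblasts. Asc1 fibroblasts and pericytes overlapped in both libraries, as did Pi16 fibroblasts and myofibroblasts. A finer annotation column marks SNAT2 cells within Asc1 fibroblasts. Ccl19 was at 9.21 CPM (1.17 to 32.7) in the 245 HFD and 44.1 CPM (23.5 to 75.3) in the 359 NC cells so marked, against 52.6 and 62.2 CPM in the rest of the class. Ccl11 was at 8.29 CPM (0.887 to 31.2) and 44.9 CPM (24.1 to 76.4) in them, against 5.93 and 4.44 CPM in the rest.

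**Figure D1:**
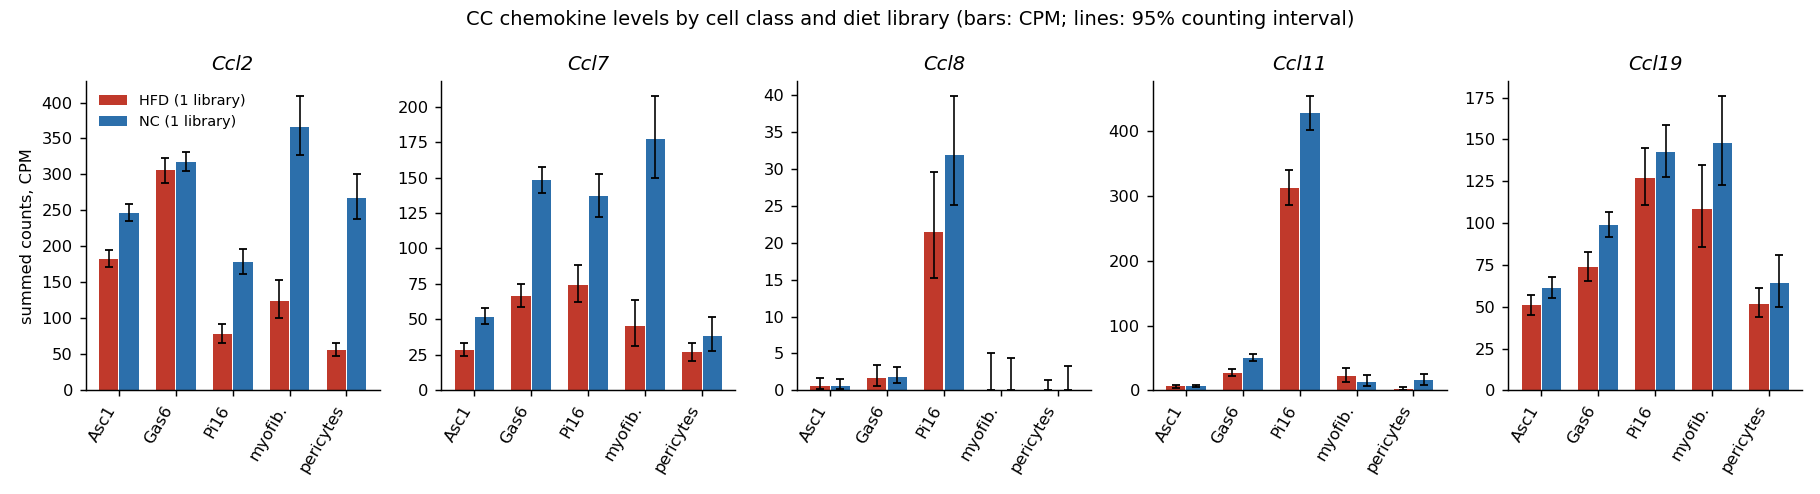
Summed level of each gene in CPM (vertical axis, from 0, scaled per panel) in the 5 cell classes of the HFD (red) and NC (blue) library; lines are 95% counting intervals and each bar is 1 library. Ccl8 and Ccl11 stand in Pi16 fibroblasts, at 21.5 and 313 CPM in HFD and 31.9 and 428 CPM in NC, while Ccl2, Ccl7 and Ccl19 are present in all classes.

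The share of cells with a count was also highest in Pi16 fibroblasts for Ccl8 and Ccl11, while for Ccl2, Ccl7 and Ccl19 it did not always follow the summed level. Since HFD cells were deeper, shares are given as deposited and again after each cell was thinned at random to 2000 counts, which left out 3 HFD and 25 NC cells. In NC, Ccl2 was found in 9.45% of myofibroblasts and 17.7% of Gas6 fibroblasts, and in 7.8% and 12.9% after thinning. Ccl2 was found in 8.41% (7.69 to 9.18) of HFD and 11.7% (11 to 12.4) of NC pooled fibroblasts, and in 6.21% and 9.19% after thinning. Ccl7 was found in 3.51% (3.04 to 4.03) and 6.45% (5.92 to 7.02), and in 2.48% and 4.55% after thinning. Both shares were lower in HFD at either depth, although HFD cells carried more counts.

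Ccl11 was found in 25.3% (22.3 to 28.4) of HFD and 33.2% (30.6 to 35.9) of NC Pi16 fibroblasts, and in 18.7% and 24.3% after thinning. In Asc1 fibroblasts the same gene was found in 0.679% (0.421 to 1.04) and 1.3% (0.973 to 1.7), and in 0.518% and 0.881% after thinning. Asc1 cells had a median depth of 8473 counts in HFD and 6340 in NC, against 10302 and 7487 in Pi16 cells. The Pi16 share was above the Asc1 share of the same library in both diets, and Asc1 cells were the shallower class. Ccl8 was found in 3.14% (2.04 to 4.6) of HFD and 4.83% (3.7 to 6.18) of NC Pi16 fibroblasts, with 0.129% and 0.125% in Asc1 fibroblasts. After thinning, the Pi16 shares for Ccl8 were 2.01% and 2.62%.

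Ccl19 was found in 16% (15.1 to 17) of HFD and 17.6% (16.7 to 18.4) of NC pooled fibroblasts. By class the share ran from 9.93% in Asc1 to 26.1% in Gas6 fibroblasts of HFD, and from 10.8% to 27.6% in the same classes of NC. At 2000 counts per cell the range over classes was narrower, from 5.73% (Asc1) to 13.6% (Pi16) in HFD and from 7.25% (Asc1) to 14.2% (Pi16) in NC. As deposited, 23.7% of HFD and 22.8% of NC pericytes had Ccl19, and 9.23% and 8% after thinning, with median depths of 19715 and 15460 counts. No class in these data is known to lack Ccl19, and the part of free RNA in these shares was not tested.

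**Figure D2:**
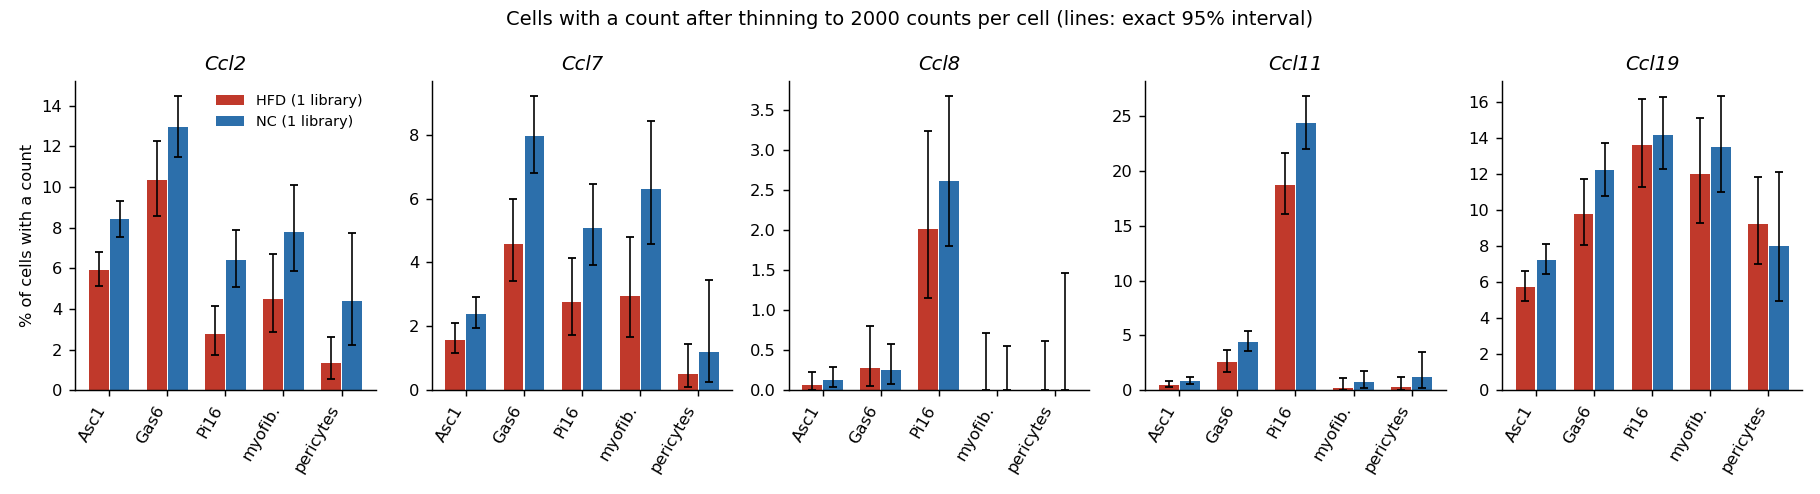
Percent of cells with at least 1 count of each gene (vertical axis, from 0, scaled per panel) in the 5 classes after thinning each cell to 2000 counts, for the HFD (red) and NC (blue) library; lines are exact 95% intervals. Ccl11 reaches 18.7% and 24.3% of Pi16 fibroblasts, while Ccl19 lies between 5.73% and 14.2% in all classes.

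Between diets, the summed levels were lower in HFD for each of the 5 genes. In pooled fibroblasts Ccl7 was at 49 CPM (45.1 to 53.1) in HFD and 110.5 CPM (105 to 116) in NC, a ratio of 0.444 (0.403 to 0.487). Ccl8 was at 3.96 CPM (2.91 to 5.27) and 5.62 CPM (4.53 to 6.88), a ratio of 0.706 (0.486 to 1.01). Ccl11 was at 58.95 CPM (54.7 to 63.5) and 85.7 CPM (81.3 to 90.3), a ratio of 0.687 (0.627 to 0.753). Ccl2 was at 205 CPM (197 to 213) in HFD and 272.5 CPM (265 to 281) in NC, a ratio of 0.753 (0.716 to 0.791). Ccl19 was at 73.1 CPM (68.3 to 78.1) and 92.9 CPM (88.35 to 97.7), a ratio of 0.786 (0.723 to 0.855). The interval included 1 for Ccl8 and lay below 1 for the other 4, but these intervals are too narrow, above all where few cells held the counts.

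Read by a fixed size of 1.5-fold, 1 of the 5 genes (Ccl7) was lower in HFD and 0 were higher. Of the 13422 genes that reached 50 effective counts in the 2 libraries together, 4.75% were lower and 5.45% higher by that size. The median log2 ratio was −0.50 over the 5 chemokines and 0.02 over all genes. The ratios of Ccl2, Ccl8 and Ccl11 lay inside the size used. Some other ways of processing took them past it. Ccl2 reached a log2 ratio of −0.64 without Gas6 fibroblasts and −0.68 with classes weighted equally. Ccl8 was past it without Gas6 fibroblasts (−0.69), with a mean of per-cell CPM (−0.67), after thinning (−0.86), without the 10 highest cells (−1.06), without the 5% deepest cells (−0.70) and when cells needed 1000 genes and no more than 5% mitochondrial counts (−0.61). Ccl11 was past it without Pi16 fibroblasts (−0.86), with a mean of per-cell CPM (−0.64), without the 10 highest cells (−0.61) and without the 5% deepest cells (−0.67). Leaving out 10 cells removes a larger part where fewer cells are positive. Those were 34 HFD and 78 NC cells for Ccl8, and 274 and 608 for Ccl11. That step can thus lower a ratio by itself.

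Within classes, 25 ratios were possible, of which 19 rested on 50 effective counts or more, 4 had fewer and 2 had no count. All 19 measured ratios were below 1, and 8 of them were lower by 1.5-fold. Of all genes measured, 50.5% were below 1 in Asc1, 47.5% in Gas6 and 48.5% in Pi16 fibroblasts, 49.7% in myofibroblasts and 41.3% in pericytes. The interval lay below 1 for 13 of the 19 and included 1 for 6. These intervals are too narrow and 50 effective counts too easily reached, above all where few cells held the counts, so 13 may be too high. All classes come from the same 2 libraries, so these ratios do not replicate one another. In Asc1 fibroblasts 1 of 4 measured genes (Ccl7) was lower by size, beside 5.46% of all genes measured there. In Gas6 fibroblasts it was 2 of 4 (Ccl7 and Ccl11), beside 5.91%. In Pi16 fibroblasts it was 2 of 5 (Ccl2 and Ccl7), beside 5.88%.

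Myofibroblasts had 2 of 3 measured genes lower (Ccl2 and Ccl7), beside 7.94%, and pericytes 1 of 3 (Ccl2), beside 6.77%. Ccl2 had the widest range between classes among ratios on 50 effective counts or more, with a ratio of 0.963 (0.897 to 1.03) in Gas6, 0.74 (0.683 to 0.802) in Asc1 and 0.437 (0.358 to 0.531) in Pi16 fibroblasts. It was 0.341 (0.267 to 0.431) in myofibroblasts and 0.208 (0.17 to 0.254) in pericytes. Ccl7 had ratios of 0.447 (0.389 to 0.513) in Gas6, 0.553 (0.454 to 0.67) in Asc1 and 0.543 (0.439 to 0.668) in Pi16 fibroblasts. In myofibroblasts Ccl7 was at 0.258 (0.172 to 0.377), and in pericytes at 0.697 (0.471 to 1.04). The differences between classes were not tested.

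Ccl11 had a ratio of 0.731 (0.657 to 0.812) in Pi16 fibroblasts, where most of its counts lie, and 0.54 (0.431 to 0.673) in Gas6 fibroblasts. Its ratio in Asc1 fibroblasts was 0.955 (0.583 to 1.55). Ccl8 in Pi16 fibroblasts was at 0.674 (0.443 to 1.01). Ccl19 stayed between 0.732 (0.545 to 0.978) in myofibroblasts and 0.891 (0.749 to 1.06) in Pi16 fibroblasts.

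**Figure D3:**
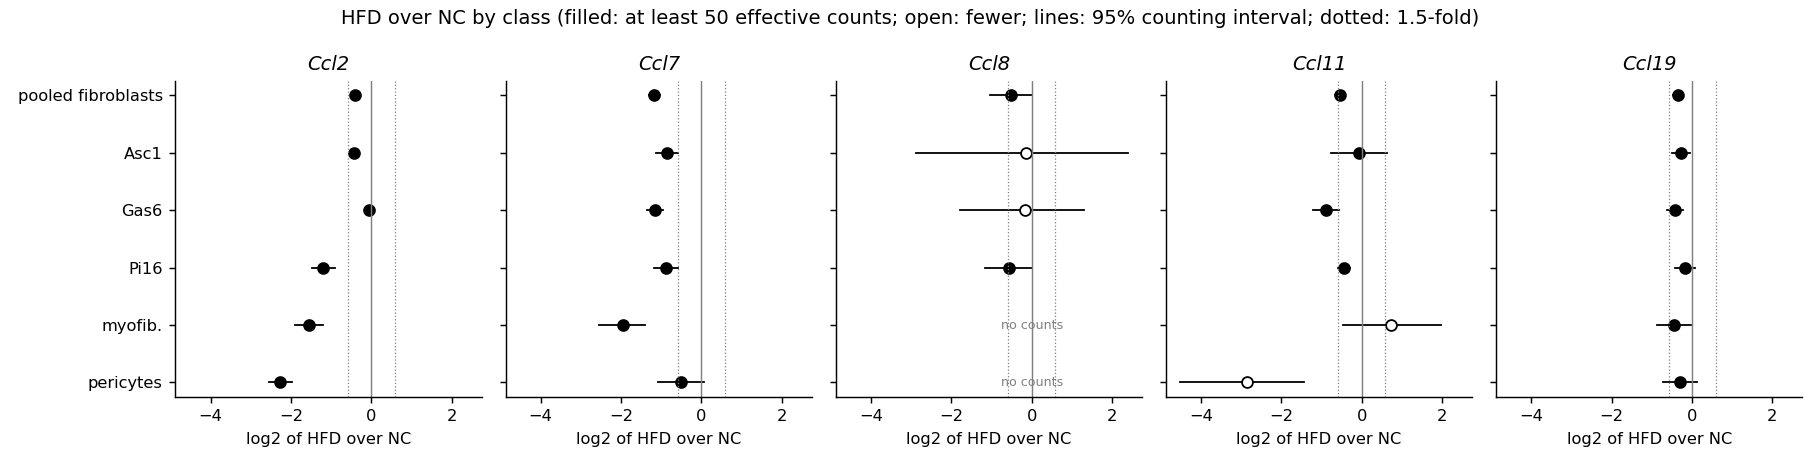
Log2 ratio of HFD over NC (horizontal axis) for each gene in pooled fibroblasts and in the 5 classes; filled points rest on 50 effective counts or more, open points on fewer, lines are 95% counting intervals and dotted lines mark 1.5-fold. All 19 filled class points lie left of 0, and the only point right of 0 is Ccl11 in myofibroblasts, where the HFD counts come from 1 cell.

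Each gene had a lower share of positive fibroblasts in HFD. After thinning, the HFD over NC ratio of the share of positive fibroblasts was 0.676 for Ccl2, 0.544 for Ccl7, 0.716 for Ccl8, 0.654 for Ccl11 and 0.816 for Ccl19. At the same depth the mean CPM of the positive cells had ratios of 1.05 for Ccl2, 0.874 for Ccl7, 0.771 for Ccl8, 1.03 for Ccl11 and 0.974 for Ccl19. These ratios have no interval, so no direction is read from those near 1. Without thinning, the pooled level divided by the share of positive cells had ratios of 1.04, 0.815, 1.13, 1.06 and 0.862. This scales the counts of positive cells to the depth of all cells, so it is not the same measure. Ccl8, with 21 HFD and 42 NC positive cells after thinning, was above 1 by it and below 1 after thinning. In myofibroblasts both quantities were below 1 for Ccl2 and Ccl7. The thinned share had a ratio of 0.578 for Ccl2 and 0.467 for Ccl7 there, and the thinned mean CPM of positive cells 0.591 and 0.498.

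Each gene's counts sat in a small part of its cells. In pooled fibroblasts, 50% of the Ccl2 counts came from 50 of 462 positive cells in HFD and from 104 of 920 in NC. For Ccl7 it was 28 of 193 and 58 of 509 cells, and for Ccl11 46 of 274 and 87 of 608. Ccl19 was less concentrated, with 200 of 880 positive HFD cells and 281 of 1386 NC cells holding that part. A Ccl2-positive fibroblast held a median of 10 counts in HFD and 8 in NC and a mean of 25.7 and 19.4, and its highest cell held 249 and 412. A Ccl19-positive cell held a median of 4 and 3 and a mean of 4.8 and 4.39.

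The top 1% of fibroblasts held 52.9% of Ccl2, 73.1% of Ccl7 and 56.1% of Ccl11 counts in HFD, and 42.9%, 58.2% and 47.9% in NC. For Ccl19 the same 1% held 22.5% and 24.8%. All Ccl8 counts were in fewer cells than that, 34 in HFD and 78 in NC. In the small classes a few cells set the level. The 10 highest cells held 84.4% of the Ccl2 counts of HFD Pi16 fibroblasts, against 50.1% in NC, and 78.3% and 62.7% in myofibroblasts. Without the 10 highest cells of each library and class, the log2 ratio of Ccl2 moved from −1.19 to −2.87 in Pi16 fibroblasts, from −1.55 to −2.33 in myofibroblasts and from −2.27 to −1.05 in pericytes. Those 10 came from 33 positive HFD and 108 NC cells in Pi16 fibroblasts, and from 31 and 63 in myofibroblasts. The step thus removed a larger part of the HFD counts, and the lower ratios there partly follow from it. In pericytes the 10 highest cells held 730 of 736 HFD and 1177 of 1181 NC counts. The value of −1.05 thus rests on far fewer than 50 effective counts.

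For Ccl7 the same step moved it from −0.88 to −1.63 in Pi16 fibroblasts and from −1.96 to −3.30 in myofibroblasts. Thinning to 2000 counts took the Ccl7 ratio of Pi16 fibroblasts to −0.43, inside 1.5-fold. Ccl11 in Asc1 fibroblasts moved from −0.07 to −1.90 without the 10 highest cells, which held 135 of 159 HFD and 74 of 161 NC counts. It moved to 0.60 when cells needed 1000 genes and no more than 5% mitochondrial counts. That stricter filter moved Ccl2 to −0.59 in Asc1 and −1.98 in Pi16 fibroblasts, and Ccl7 to −1.16 in myofibroblasts. Ccl19 in pericytes turned from −0.30 to 0.38 without the 10 highest cells and to 0.42 after thinning, and was at −0.78 under the stricter filter. Ccl7 in pericytes moved from −0.52 to −0.79 after thinning and to −0.21 under the stricter filter. Ccl8 in Pi16 fibroblasts moved from −0.57 to −1.21 without the 10 highest cells, to −0.80 after thinning and to −0.65 under the stricter filter.

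**Figure D4:**
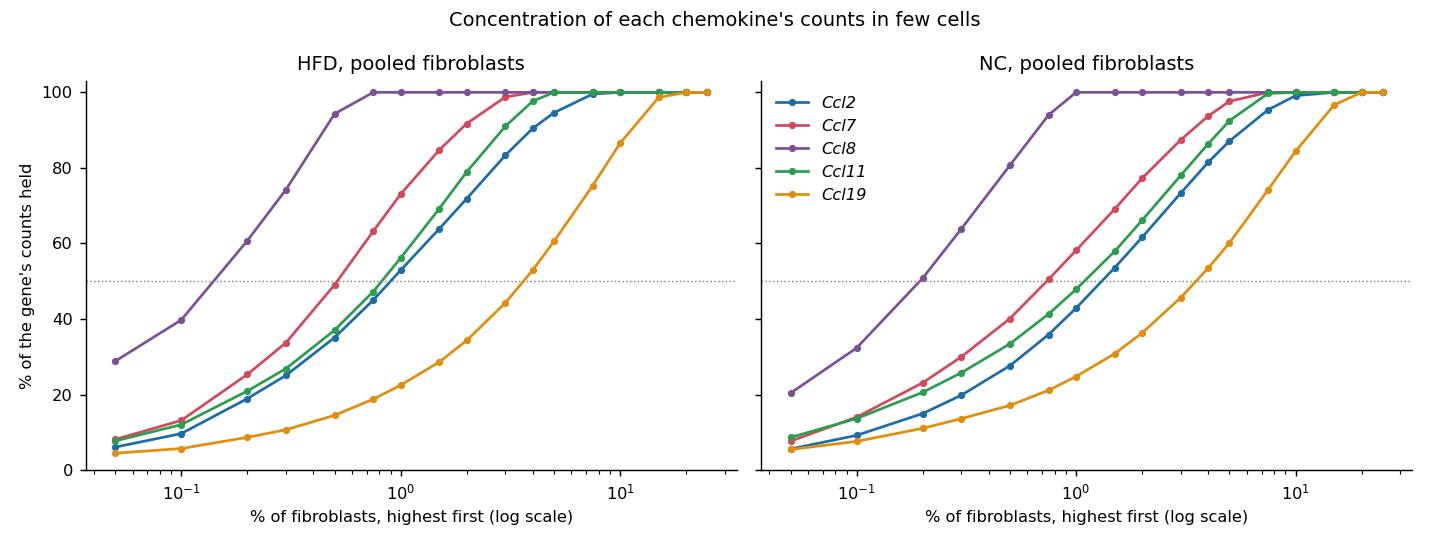
Cumulative percent of each gene's counts (vertical axis) held by the given percent of pooled fibroblasts, taken from the highest cell down (horizontal axis, log scale), in HFD and NC; the dotted line marks 50%. At 1% of cells Ccl7 stands at 73.1% in HFD and 58.2% in NC, and Ccl19 at 22.5% and 24.8%.

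Ccl2 was found more often in cells with Ccl7 than in cells without it, and Ccl11 more often in cells with Ccl8 or Ccl7. After thinning, 31.6% (23.9 to 40.1) of 136 HFD fibroblasts with Ccl7 also had Ccl2, against 5.57% of those without Ccl7. In NC it was 38.3% (33.2 to 43.5) of 358 cells, against 7.81%. The same held within Gas6 fibroblasts alone, at 42% (28.2 to 56.8) of 50 HFD and 43.4% (35.6 to 51.5) of 159 NC cells, against 8.8% and 10.3%. Pi16 fibroblasts with Ccl7 had Ccl2 in 31.8% (13.9 to 54.9) of 22 HFD and 29% (18.2 to 41.9) of 62 NC cells, against 1.94% and 5.18%. Both classes thus showed the higher share among Ccl7 cells in both libraries.

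Ccl11 was found in 38.1% (18.1 to 61.6) of 21 HFD and 59.5% (43.3 to 74.4) of 42 NC fibroblasts with Ccl8, against 3.4% and 5.11% of those without it. Within Pi16 fibroblasts it was 31.2% (11 to 58.7) of 16 HFD cells against 18.5%, and 68.8% (50 to 83.9) of 32 NC cells against 23.1%. The HFD interval includes the value of the cells without Ccl8. With Ccl7, Ccl11 was found in 10.3% (5.74 to 16.7) of HFD and 13.1% (9.81 to 17.1) of NC fibroblasts. Without Ccl7 the shares were 3.36% and 5.04%. Within Pi16 fibroblasts it was 50% (28.2 to 71.8) of 22 HFD and 43.5% (31 to 56.7) of 62 NC cells. Pi16 cells without Ccl7 had Ccl11 in 17.8% and 23.3%. Ccl2 was found in 6.7% of HFD and 10.1% of NC fibroblasts with Ccl11, and in 6.19% and 9.14% of those without, values that lie within the intervals. Within Pi16 fibroblasts Ccl2 was found in 6.71% (3.27 to 12) of HFD cells with Ccl11 against 1.85% of those without, and in 8.42% (5.52 to 12.2) against 5.74% in NC, where the interval includes the value of the cells without Ccl11. Ccl19 was found in 12.3% (9.02 to 16.3) of HFD and 10.1% (8 to 12.5) of NC cells with Ccl2, and in 7.98% and 10.1% of those without. With Ccl11 the Ccl19 shares were 14.9% (10.2 to 20.8) and 18.1% (14.6 to 22.1), against 8.01% and 9.65%. With Ccl7 they were 14% (8.63 to 21) and 14.5% (11 to 18.6), against 8.11% and 9.9%. Within HFD Pi16 fibroblasts Ccl19 was found in 14.8% (9.49 to 21.5) with Ccl11, and 13.3% without lies in that interval. Of the thinned fibroblasts, 81.9% in HFD and 75.4% in NC had none of the 5 genes, 15.6% and 20.1% had 1, and 2.11% and 3.78% had 2. No cell had all 5.

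**Figure D5:**
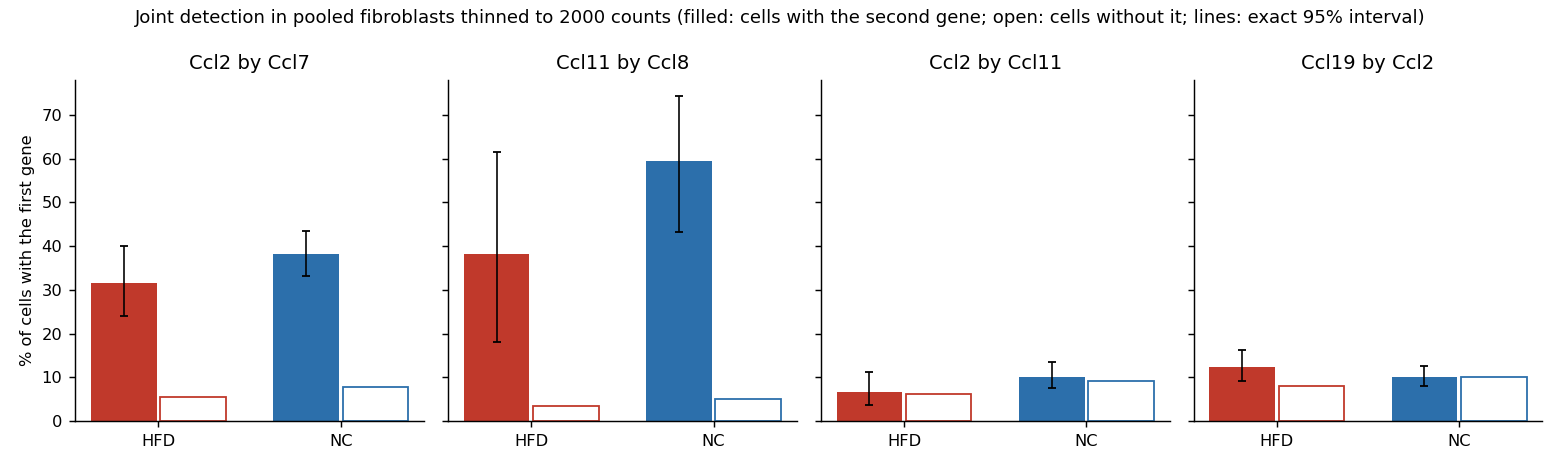
Percent of pooled fibroblasts with the first gene of each panel title (vertical axis) among cells with the second gene (filled, with exact 95% interval) and without it (open), after thinning to 2000 counts, in HFD (red) and NC (blue). Ccl2 by Ccl7 stands at 31.6% and 38.3% against 5.57% and 7.81%, while Ccl2 by Ccl11 stands at 6.7% and 10.1% against 6.19% and 9.14%.

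Deeper cells detect more genes, so joint detection was set beside depth. Fibroblasts with a Ccl2 count had a median of 11570 counts in HFD and 8626 in NC, against 9409 and 7290 in those without. For Ccl7 the medians were 11686 and 9507 counts against 9476 and 7309. Without thinning, 8 of the 50 highest Ccl2 cells in HFD were among the 50 highest Ccl7 cells, and 13 of 50 in NC.

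Monocytes and macrophages can also make CC chemokines, so their markers were read in the same cells. Of 13 listed markers 11 were in the tables, and they summed to 45.7 CPM in HFD and 65.3 CPM in NC pooled fibroblasts. Over the fibroblast classes the sum ran from 25.2 (Asc1) to 174 CPM (myofibroblasts) in HFD and from 36.8 (Asc1) to 112 CPM (Pi16) in NC. The defining leukocyte gene Ptprc was at 0 in both libraries, and Adgre1 was at 0 in HFD and at 0.0458 CPM in NC. Itgax, Cd3e, Pecam1, Epcam, Sftpc and Msln, which define other cell types, were also at exactly 0 in both, while other markers of the same types were present. Whether cells were selected on such genes is not given in the sources used here, so these values of 0 are not read as absence of those cells. Csf1r was at 1.04 and 0.565 CPM and C1qa at 0.294 and 0.229 CPM. At least 1 of the 11 markers was found in 10.2% of HFD and 14.2% of NC fibroblasts with Ccl2, against 8.69% and 12.2% of those without. For Ccl11 the shares were 19% and 24.8%, against 8.28% and 11.4%. For Ccl7 they were 15% and 16.7%, against 8.58% and 12.1%, and for Ccl19 10.7% and 17.9%, against 8.45% and 11.2%. Ccl8 cells had a marker in 4 of 34 in HFD and 25 of 78 in NC (32.1%), against 8.79% and 12.2%. Among pooled fibroblasts the share was thus higher in positive cells for all 5 genes in both libraries, at depths that were not equalised. It did not hold in every class. In HFD Gas6 fibroblasts the share was 10.4% with Ccl2 against 15.4% without. In HFD Asc1 fibroblasts it was 4.41% with Ccl7 (3 of 68 cells) against 6.22%, and 5.21% with Ccl19 (16 of 307) against 6.28%. These Asc1 gaps amount to few cells and were not tested. HFD Pi16 fibroblasts had the pooled direction, at 33.3% with Ccl2 against 11.4% and 34.2% with Ccl7 against 11.2%. In pooled fibroblasts Cd74, an antigen presentation gene on the list, was seen in 2.59% of HFD and 1.77% of NC cells with Ccl7. The shares without Ccl7 were 0.585% and 0.854%, and the Ccl7 shares are 5 and 9 cells. In the same HFD cells with Ccl7, Plac8 on that list was seen in 8.81%, against 2.81% without. Lyz2 went the other way, in 0 of 193 HFD cells with Ccl7 against 1.96%.

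Most of the difference for Ccl11 was 1 gene. Plac8, which is on the monocyte list and was also found in Pi16 fibroblasts (44.6 CPM in HFD and 82.2 CPM in NC), was seen in 12.4% of HFD and 19.2% of NC fibroblasts with Ccl11, against 2.53% and 4.96% of those without. Within Pi16 fibroblasts the Plac8 shares were 13.4% and 20.9% with Ccl11, against 5.04% and 8.58% without. In pooled fibroblasts Lyz2 was seen in 2.19% and 1.15% of them, against 1.88% and 1.28%. Csf1r was seen in 0 of 274 HFD and 1 of 608 NC fibroblasts with Ccl11, too few to set against 0.249% and 0.261% of those without. Lymphocyte markers (6 genes) summed to 0.606 and 4.21 CPM, neutrophil markers (4 genes) to 0.813 and 3.52 CPM, and endothelial markers (6 of 7 listed genes in the tables) to 0.9 and 1.63 CPM. Dendritic cell markers (3 of 6) summed to 2.98 and 8.85 CPM, epithelial markers to 39 and 27.5 CPM and mesothelial markers to 4.14 and 4.3 CPM. Of 5 mast cell or basophil markers only Kit was in the tables, at 3.5 and 2.52 CPM. In pooled fibroblasts the monocyte, lymphocyte, neutrophil, dendritic and endothelial sums were higher in NC, as the chemokines were. The epithelial sum and Kit were higher in HFD. By class, the monocyte sum pointed the other way in myofibroblasts, at 174 CPM in HFD and 72.2 CPM in NC, and was higher in NC in the other classes. Few cells set that HFD value. Lyz2 made up 76.6 of the 174 CPM and was seen in 0.98% of 510 cells. Any marker of the list was seen in 6.86% of HFD and 6.3% of NC myofibroblasts. The part of all these markers in the chemokine ratios was not tested.

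The filter itself was checked on the cells it removed. Ccl2 was at 62.5 CPM (47.5 to 80.8) in the 882 HFD and 101 CPM (79.7 to 125) in the 875 NC cells left out, against 177 and 272 CPM in kept cells of all classes. Ccl19 was at 52.5 and 52.8 CPM in them, against 69.1 and 91.1 CPM. Ccl11 was at 20.8 and 32.6 CPM, against 48.4 and 81.3 CPM. Ccl7 pointed the other way in the cells left out, at 32.4 CPM (21.8 to 46.2) in HFD and 17.4 CPM (9.46 to 29.3) in NC, with intervals that overlap, against 44.8 and 106 CPM in kept cells. Ccl8 was at 3.1 and 2.21 CPM there, from 2 cells in each library.

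Most other CC chemokines were sparse, but Ccl27a was not. Of 16 listed, 9 were in the tables and 3 reached 50 effective counts. Ccl5, which attracts T cells and monocytes, was at 3.89 CPM in HFD and 7.49 CPM in NC, a ratio of 0.52 (0.362 to 0.734). Ccl25, a ligand of Ccr9, was at 6.25 and 5.72 CPM, a ratio of 1.09 (0.794 to 1.5). Ccl27a was at 55.2 and 32.2 CPM, a ratio of 1.71 (1.52 to 1.92). It is a multicopy gene in mice, so its value is uncertain. Of these, 1 was lower, 1 higher and 1 inside 1.5-fold. Among 5 atypical receptors, which bind chemokines without the usual signalling, 2 were measured. Ackr3 was at 16.9 and 16.2 CPM, a ratio of 1.04 (0.862 to 1.25). Ccrl2 was at 38.7 and 58.2 CPM, a ratio of 0.665 (0.594 to 0.744).

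NF-kB signalling downstream of interleukin 1 and tumor necrosis factor is a known inducer of Ccl2 and Ccl7. Of 13 genes on that list all were measured, 2 were lower by size (Nfkb1 and Tnfaip3), 0 higher, 12 below 1, and the median log2 ratio was −0.31. Beside this and each list that follows, 4.75% of all genes measured in pooled fibroblasts were lower by size, 5.45% higher and 46.3% below 1. The part of these genes in the chemokine ratios was not tested. Nfkb1, a subunit precursor, was at 109 CPM in HFD and 207 CPM in NC, a ratio of 0.525 (0.492 to 0.56). Nfkbia, the inhibitor that NF-kB itself induces, was at 498 and 731 CPM, a ratio of 0.682 (0.661 to 0.703). Nfkbiz was at 558 and 595 CPM (ratio 0.939) and Tnfrsf1a at 89.1 and 111 CPM (ratio 0.805). On the list of lymphotoxin and non-canonical NF-kB genes, which act upstream of Ccl19 in lymphoid stroma, 1 of 9 measured genes was lower, 0 higher and 8 below 1 (median −0.26). Tnfrsf12a had a ratio of 0.551 (0.519 to 0.584), Birc3 0.748, Relb 0.832 and Cd40 1.29.

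Type 2 cytokines induce Ccl11 in fibroblasts. Of 7 measured genes of that response 1 was lower (Il33), 0 higher and 5 below 1, with a median of −0.10. Il4ra, the receptor chain for interleukins 4 and 13, was at 21.5 CPM in HFD and 30.4 CPM in NC, a ratio of 0.706 (0.605 to 0.822). Jak1 had a ratio of 0.903, Tslp 1.04 and Socs1 0.932. The interferon-gamma list had 0 of 8 measured genes past 1.5-fold in either direction and 4 below 1 (median −0.03). Its most abundant genes were Socs3 (ratio 1.06), Irf1 (1.08), Ifngr1 (0.743) and Irf8 (1.08).

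Glucocorticoids and the RNA-binding protein tristetraprolin (Zfp36) limit chemokine transcripts. Of 10 measured genes on that list 2 were lower (Tsc22d3 and Fkbp5), 0 higher and 5 below 1, with a median of −0.03. Tsc22d3, a glucocorticoid-induced gene, was at 137 CPM in HFD and 347 CPM in NC, a ratio of 0.394 (0.373 to 0.417). Zfp36 was at 2512 and 2374 CPM (ratio 1.06), Dusp1 at 2371 and 2136 CPM (1.11) and Zfp36l1 at 983 and 847 CPM (1.16). Of 8 measured lymphoid stroma genes 1 was lower (Ch25h), 0 higher and 6 below 1 (median −0.19). Vcam1 had a ratio of 0.917, Icam1 1.01, Tnfsf13b 0.89 and Cxcl12 0.866. Of 14 genes for heparan sulfate and its carrier proteins, which hold chemokines at the surface, 1 was lower (Sdc4), 0 higher and 9 below 1 (median −0.03). Sdc4 was at 323 and 561 CPM (ratio 0.576), Gpc3 at 426 and 366 CPM (1.16), Sdc2 at 179 and 183 CPM (0.979) and Hspg2 at 84.5 and 93.4 CPM (0.905). Over the 10 lists, 10 of 74 measured genes were lower and 1 was higher, beside 4.75% and 5.45% of all genes. Of all genes measured in pooled fibroblasts, 46.3% were below 1.

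The genes most like each chemokine were ranked by Pearson r of log2(CPM + 1) over the 10 sums of 5 classes by 2 libraries. These points share libraries and depth, and r is a description. Ccl11 was closest to Il33 (r 0.975), Gda (0.97) and Fmnl2 (0.968). Il33, an alarmin, was at 69.7 CPM in HFD and 94.9 CPM in NC Pi16 fibroblasts and at 7.53 and 22.7 CPM in Gas6 fibroblasts. Ccl8 was closest to Ssr4, Tmed3 and Serpinf1 (0.975 to 0.981), and Ccl7 to Uap1 (0.969), Col5a2 (0.939) and Cd74 (0.925). Ccl2 was closest to Tax1bp1 (0.935), Kpna1 and Tbc1d22a (both 0.92). Ccl19 was closest to Sntb2 (0.973), Col14a1 (0.96) and its copy Ccl19-ps3 (0.951).

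Across single fibroblasts, r reached 0.3 in both libraries only for Ccl11 and Ccl19. Ccl11 was closest to Ly6a (0.431 in HFD and 0.431 in NC), Scara5 (0.467 and 0.394) and Serpinf1 (0.435 and 0.416), over 5493 and 7890 cells. Ly6a, the surface antigen Sca-1, was at 584 and 763 CPM in Pi16 fibroblasts and at 4.77 and 6.94 CPM in Asc1 fibroblasts. Ccl19 reached 0.727 and 0.742 with Ccl19-ps3 alone, with which it may share reads. Ccl2, Ccl7 and Ccl8 had no gene at 0.3.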

How the data were processed

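The authors' deposited tables hold log2 values per cell, 1 table per library, and their size shows CPM with a pseudocount of 1. Per the file headers each cell also has a total, used as an estimated count, and a mitochondrial share in percent. STAR and mm39 are named in the submitters' processing notes, with roles and versions not given in the sources used here. In the HFD table the earlier of 2 sets of totals did not match its rows (Spearman 0.0494 with the later set), so the later set was used. Reversing the log2 scale and rescaling to each total gave counts, of which 98.8% in HFD and 98.96% in NC were whole within 0.01. Symbols were matched for 20180 of 21014 identifiers.

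Variance factors are the median over genes seen in 0.1 to 1% of kept cells. Level intervals are exact Poisson, ratio intervals exact conditional and share intervals Clopper-Pearson, at 95% (Python 3.11.15, numpy 2.4.6, scipy 1.17.1, pandas 2.3.3). A count of 0 allows 3 counts, or 3 cells for a share, in place of the Clopper-Pearson bound. The ratio step was run on simulated data clumped by the same divisors, where 95.7% of intervals held the simulated ratio. This could not check the stronger clumping of the chemokines. Alternatives included TMM factors (edgeR 4.0.16), thinning and leaving out classes. No doublet caller was run. Named genes are the 5 chemokines, up to 4 most counted measured genes per list and the 3 most alike per chemokine. Tnfaip3, Il33, Fkbp5 and Ch25h, and single marker genes, were named after their values were seen. The members and lists were chosen with earlier results of these data known. Listed genes outside the tables were not analysed here.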

Additional observations from a re-analysis of the deposited data

Results flagged for a closer look

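The HFD over NC ratio of Ccl11 pointed in opposite directions between classes of the same libraries. It was 1.66 in myofibroblasts, against 0.54 in Gas6 fibroblasts and 0.137 in pericytes. The difference was not tested. The myofibroblast value rests on 1 HFD cell with 77 counts and 5 NC cells with 44 counts, and the pericyte value on 6 cells per library.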

How the results depend on the processing

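In pooled fibroblasts, each of the 5 log2 ratios stayed below 0 under 15 other ways of processing, from −0.68 to −0.35 for Ccl2, −1.29 to −1.06 for Ccl7, −1.06 to −0.31 for Ccl8, −0.86 to −0.40 for Ccl11 and −0.41 to −0.24 for Ccl19. Ccl2 moved out of its interval after thinning (−0.50), with classes weighted equally (−0.68), without the 10 highest cells (−0.52) and without Gas6 fibroblasts (−0.64). Ccl8 did so without the 10 highest cells (−1.06), and Ccl11 without Asc1 (−0.40) or Pi16 fibroblasts (−0.86). Leaving out 10 cells takes a larger part of the positive cells in HFD, where fewer were positive. Past a fold of 2, 156 genes were lower and 114 higher, against 638 and 732 at 1.5. TMM and median of ratios scaling lowered all log2 ratios by 0.0228 and 0.0251. Per cell, the HFD minus NC difference in mean log2(CPM + 1) lay between −0.33 (Ccl2) and −0.03 (Ccl8). Ccl19 summed with its copies, an alternative chosen after seeing the data, was at −0.45. No paired analysis was possible because each diet has 1 library. No library could be left out for the same reason, and the diet and the library cannot be told apart.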
